A study of Homo sapiens with 9 samples.

Results

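The genes of mitosis and cell division described here are 47 human genes that encode mitotic kinases, CDK1 with its cyclins and their switch, regulators of chromosome separation, the condensins, spindle proteins and the machinery of cytokinesis. They are given by name, and the list does not use a threshold on measured values, but it was drawn up with earlier results of these data known. Where several probe sets carried a gene's symbol and no other, the brightest was used, by mean log2(signal + 1) over the 9 arrays. Of the 47 genes, 46 had such a probe set, out of 19775 genes that did. CIT, citron kinase of the cleavage furrow, is measured on the array by probe sets that it shares with another gene, so no value is given for it.

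RNA came from U87 cells, an established human glioma line. Each group had 3 arrays, each labelled as a biological replicate, and all groups were transfected with 50 nM of a miRNA duplex using Lipofectamine RNAiMAX and harvested after 72 h. The groups were miR-376a*A, the unedited form of the miRNA, miR-376a*G, the form with the A-to-I edit read as G, and miR-control, a control duplex. The labels do not say which cultures, days or hybridisations the replicates came from, so a p-value measures only the spread between these arrays, which may be technical, and all results are from 1 cell line. The study's design text sets each form of the miRNA against the control duplex; the direct comparison of both forms was added here.

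Progress into mitosis is driven by CDK1 bound to cyclin A or cyclin B. The kinases WEE1 and PKMYT1 hold CDK1 inactive by phosphorylating it, and the CDC25 phosphatases release it. Polo-like and Aurora kinases then build the spindle, condensins compact the chromosomes, and CDC20 activates the anaphase-promoting complex, a ubiquitin ligase that destroys securin and cyclin B. The transcripts of most of these genes peak late in the cell cycle, through promoter elements bound by the DREAM and MuvB complexes with B-MYB (MYBL2) and FOXM1. In RNA from a whole culture, a different number of cells in late cell cycle and a different amount of transcript per cell cannot be told apart.

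The miRNA is shown first because its forms define the groups, with the seed (bases 2 to 8 from the 5′ end) in capitals. The sequence is the RefSeq mature miRNA of MIR376A1 on chromosome 14 (GRCh38.p14, plus strand, chr14:101040788-101040809). It is the unedited form. No sequence of the edited duplex is given in the files used here.
hsa-miR-376a-5p: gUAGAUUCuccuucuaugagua

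Promoter windows of 300 bases, 250 before and 50 after the annotated start, were found in RefSeq (GRCh38.p14) for 36 of the 47 genes, in 52 windows. The cell cycle genes homology region was read here as the letters TTTGAA or TTCGAA, and other forms of it were not searched for. CCAAT is the box bound by NF-Y, often found beside this region. Both strands were searched. TTTGAA was found in 28 of the 52 windows (53.8%), against 15.2% of all 35116 RefSeq promoter windows. CCAAT was found in 33 of the 52 windows (63.5%), against 34.6% of all windows, and both strings together in 21 windows (40.4%), against 5.9%. Counted per gene, TTTGAA was found for 25 of the 36 genes (69.4%), against 18.2% of all genes with a window. TTCGAA was found in 1 window (1.92%, against 1.45% of all windows) and GCGGGAA, an E2F-type string, in 6 windows (11.5%, against 6.55%). A match describes the letters only. It is not evidence of binding.
Stretches of 130 bases that end at the base before the annotated start are printed below, as examples of some of the layouts of TTTGAA and CCAAT found. CCNB2, PLK1 and CDC20 hold both strings. Of these strings CCNB1 holds CCAAT only, and SMC4 holds TTTGAA on the opposite strand, printed as TTCAAA. Capitals mark these letters.
CCNB2, chr15:59105016-59105145: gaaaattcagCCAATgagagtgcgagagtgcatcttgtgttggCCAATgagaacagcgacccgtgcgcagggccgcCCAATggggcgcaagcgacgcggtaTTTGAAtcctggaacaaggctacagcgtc
PLK1, chr16:23678759-23678888: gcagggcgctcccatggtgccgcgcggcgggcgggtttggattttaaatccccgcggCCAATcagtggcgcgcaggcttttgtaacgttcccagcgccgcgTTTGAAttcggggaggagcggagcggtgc
CDC20, chr1:43358851-43358980: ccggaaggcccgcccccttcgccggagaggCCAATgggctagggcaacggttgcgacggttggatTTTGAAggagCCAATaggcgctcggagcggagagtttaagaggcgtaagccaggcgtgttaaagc
CCNB1, chr5:69167020-69167149: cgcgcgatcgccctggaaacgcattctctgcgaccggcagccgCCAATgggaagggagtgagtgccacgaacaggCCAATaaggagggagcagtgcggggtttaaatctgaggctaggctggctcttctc
SMC4, chr3:160399520-160399649: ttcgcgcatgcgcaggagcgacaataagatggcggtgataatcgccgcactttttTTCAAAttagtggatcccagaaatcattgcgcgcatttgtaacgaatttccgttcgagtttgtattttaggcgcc

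Genes entered the tests if 3 or more arrays had a signal above the median of that array, which 12587 genes met, all 46 measured members among them. Of these, 44 were above the median on all 9 arrays. NCAPH was above it on 8. FBXO43 was above it only on the 3 miR-376a*G arrays and so was tested only because of the group in which it was high. The glioma-line markers VIM, CD44, NES and SPARC were all measured, with a summed signal of 5815 to 7432 on miR-376a*A arrays, 5200 to 5583 on miR-376a*G arrays and 5283 to 6080 on miR-control arrays. Of the leukocyte markers on the array, 0 of 3 passed the filter. The neuron marker sum ranged from 416 to 2000 on miR-376a*A arrays, from 272 to 279 on miR-376a*G arrays and from 349 to 1693 on miR-control arrays. SNAP25 made most of it, and its part in any result was not tested. The hybridisation control signals (mean log2) were 7.82 to 7.92 on miR-376a*A arrays, 7.12 to 7.29 on miR-376a*G arrays and 7.51 to 7.70 on miR-control arrays.

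Arrays labelled miR-376a*A replicate 1 and miR-control replicate 1 stood apart from their groups, so the results that use them are given with and without them. For 39 of the 46 members (84.8%), miR-376a*A replicate 1 had a signal nearer the mean of miR-control replicates 2 and 3 than that of miR-376a*A replicates 2 and 3, as did 77% of all tested genes. For 35 of the 46 members (76.1%), miR-control replicate 1 was nearer miR-376a*A replicates 2 and 3, as were 75.2% of all tested genes. Over the members, log2 signals of miR-376a*A replicate 1 correlated at 0.992 with miR-control replicate 2 and at 0.882 with miR-376a*A replicate 2. The 3 miR-376a*G arrays correlated with each other at 0.992 to 0.993. The median within-group SD of the members' log2 signal was 0.277 on miR-376a*A arrays, 0.0796 on miR-376a*G arrays and 0.255 on miR-control arrays.

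**Figure D1:**
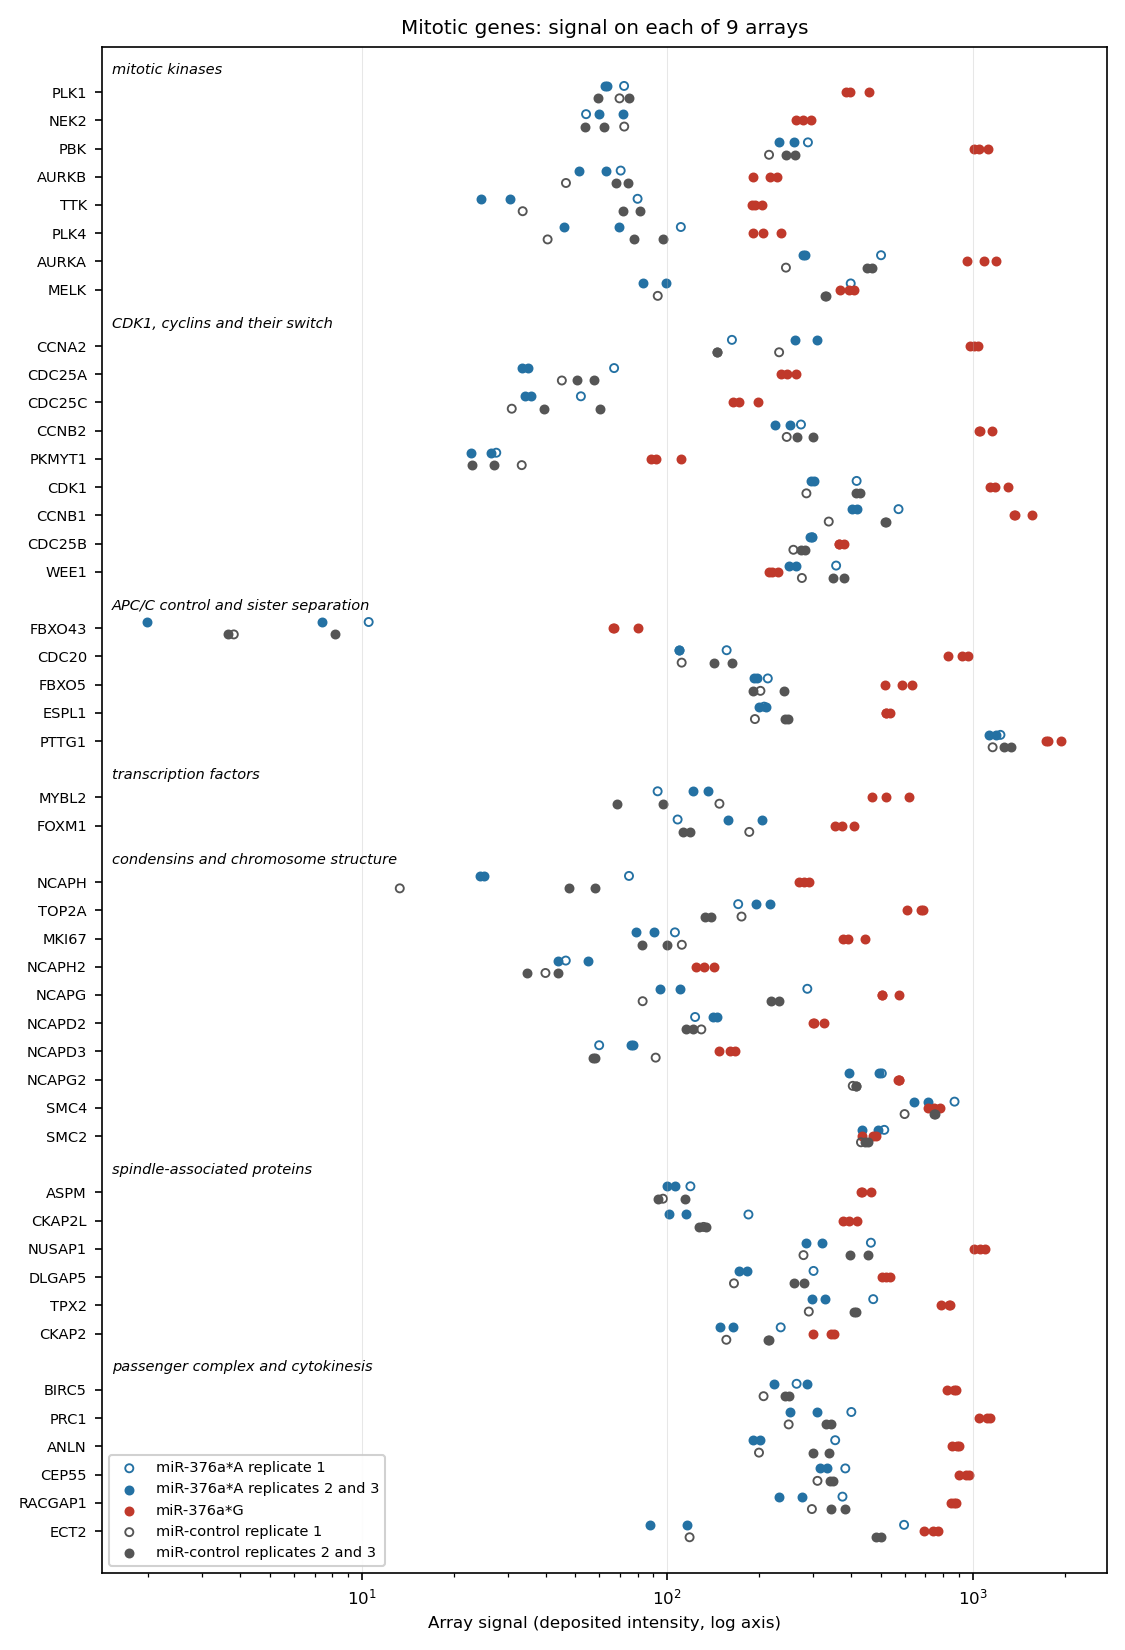
Signal (deposited intensity, log axis) of each member on each of the 9 arrays, grouped by role. Open symbols mark replicate 1 of miR-376a*A and of miR-control; the miR-376a*G points lie to the right of the miR-control points for 43 of 46 genes, and to the left for WEE1.

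Mitotic transcripts were higher in miR-376a*G cells than in miR-control cells for most measured members of every role. Of the 46 members measured, 41 were called higher and 1, WEE1, lower (limma, Benjamini-Hochberg adjusted p under 0.05 over all 12587 genes), against 18.0% of all tested genes called higher and 15.4% called lower. Without FBXO43, the counts were 40 of 45. The median log2 difference was 1.68 over the members and 0.12 over all tested genes. A difference over 1 was seen in 38 members and over 2 in 14. For 43 members all 3 miR-376a*G arrays lay above all 3 miR-control arrays, against 31.1% of all tested genes, and for 1 they lay below, against 22.3%. Without miR-376a*A replicate 1 and miR-control replicate 1, 42 members were called higher (31.2% of all genes) and 1 lower (25.0%). These arrays were left out for where they lay, so p-values of that fit are not independent of the choice. Scaling to the hybridisation controls moved the median of all genes to 0.52 and scaling to the poly-A controls to 0.42, with 43 and 42 members called higher; centring on array medians moved it to −0.12, with 36. The differences below are as deposited.

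The mitotic kinases were called higher in 7 of 8 cases, with a median log2 difference of 1.75. PLK1, the polo-like kinase of mitotic entry and spindle assembly, had signals of 384, 396 and 458 on miR-376a*G arrays, against 69.8, 74.7 and 59.4 on miR-control arrays. The groups did not overlap, and the log2 difference was 2.59 (SE 0.14, adjusted p = 1.0e-05). AURKB, the Aurora kinase of the chromosomal passenger complex, had 191, 217 and 228 on miR-376a*G arrays, against 46.6, 74.4 and 68.0 on miR-control arrays, again without overlap, with a log2 difference of 1.76 (SE 0.20, adjusted p = 2.6e-04). AURKA, the Aurora kinase of centrosomes and spindle poles, had 957, 1194 and 1088 on miR-376a*G arrays, against 245, 470 and 452 on miR-control arrays, a log2 difference of 1.52 (SE 0.29, adjusted p = 0.00403). Its groups did not overlap. NEK2 (2.14), a kinase of centrosome separation, and PBK (2.14), a kinase of mitotic cells, were also called higher. PLK4 (1.62), of centriole duplication, and TTK (1.74), of the spindle checkpoint, were higher too, but the adjusted p of TTK was 0.0528 without miR-376a*G replicate 1. TTK was called higher without miR-376a*A replicate 1 and miR-control replicate 1 (1.35, adjusted p = 1.1e-05).

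MELK, a kinase linked to cell division, had 410, 395 and 368 on miR-376a*G arrays, against 93.1, 332 and 328 on miR-control arrays. All miR-376a*G arrays lay above the control arrays, but 1 control array was far below the other 2, and the log2 difference of 0.85 (SE 0.63, adjusted p = 0.331) was not called. Without miR-376a*A replicate 1 and miR-control replicate 1 it was 0.24 (SE 0.10, adjusted p = 0.0571).

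CDK1 and its switch gave 8 called higher and 1 called lower of 9, with a median of 1.77. CCNA2, cyclin A2, had 1013, 1038 and 980 on miR-376a*G arrays, against 232, 146 and 146 on miR-control arrays, a log2 difference of 2.56 (SE 0.25, adjusted p = 1.2e-04). CCNB2, cyclin B2, whose promoter is printed above, had 1061, 1158 and 1050 on miR-376a*G arrays, against 246, 301 and 266 on miR-control arrays, a log2 difference of 2.01 (SE 0.12, adjusted p = 1.2e-05). Neither pair of groups overlapped. CDK1 itself had 1186, 1303 and 1140 on miR-376a*G arrays, against 286, 429 and 414 on miR-control arrays, a log2 difference of 1.70 (SE 0.19, adjusted p = 2.1e-04), also without overlap. CCNB1 differed by 1.67, and its second probe set by 1.14 (adjusted p = 0.0771).

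Among the phosphatases that activate CDK1, CDC25A differed by 2.27 and CDC25C by 2.06. CDC25B, the remaining family member, had 366, 365 and 380 on miR-376a*G arrays, against 259, 282 and 275 on miR-control arrays. These groups did not overlap, but the log2 difference of 0.45 (SE 0.09, adjusted p = 0.00606) was small, and its adjusted p became 0.302 when arrays were centred on their medians. Both kinases that inhibit CDK1 were measured, and they differed in sign. PKMYT1 was higher in miR-376a*G cells (1.77). WEE1 had 221, 231 and 216 on miR-376a*G arrays, against 276, 378 and 348 on miR-control arrays, without overlap, a log2 difference of −0.57 (SE 0.17, adjusted p = 0.0283). The WEE1 call was lost when 1 array was left out: without any 1 of the miR-376a*G arrays the adjusted p was 0.0664 to 0.0880, without miR-control replicate 2 it was 0.101 and without replicate 3 0.0845. The call was also lost with the mean over all probe sets (adjusted p = 0.0529) and with both control scalings, where the difference was −0.17 (hybridisation, adjusted p = 0.458) and −0.27 (poly-A, adjusted p = 0.272). WEE1 was called lower without miR-376a*A replicate 1 and miR-control replicate 1 (−0.70, SE 0.09, adjusted p = 4.9e-05). A second WEE1 probe set gave −0.36 (adjusted p = 0.145).

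All 5 regulators of chromosome separation were called higher in miR-376a*G cells, with a median log2 difference of 1.45. The 5 include FBXO43, which was tested only because it was high in that group. CDC20, the activator of the anaphase-promoting complex, had 830, 967 and 920 on miR-376a*G arrays, against 111, 163 and 142 on miR-control arrays. The arrays did not overlap, and the log2 difference was 2.71 (SE 0.19, adjusted p = 2.1e-05). FBXO5, an inhibitor of the same complex, was 1.45 higher on the log2 scale. FBXO43, a related inhibitor known from egg maturation in frogs and mice, was 80.2, 66.4 and 67.1 on miR-376a*G arrays, against 3.81, 8.17 and 3.63 on miR-control arrays. Its control values are near the lower end of the scale, so the log2 difference of 3.61 depends on the constant of 1 added before taking logs. ESPL1, separase, which cuts cohesin, differed by 1.21. PTTG1, the securin that restrains it, had 1765, 1952 and 1742 on miR-376a*G arrays, against 1163, 1267 and 1333 on miR-control arrays, a log2 difference of 0.54 (SE 0.08, adjusted p = 0.00116). This was the smallest of the 5, and its adjusted p was 0.141 when arrays were centred on their medians.

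Both transcription factors on the list were higher in miR-376a*G cells. MYBL2, the B-MYB factor that binds MuvB, had 470, 520 and 618 on miR-376a*G arrays, against 148, 96.5 and 68.5 on miR-control arrays, a log2 difference of 2.41 (SE 0.27, adjusted p = 2.4e-04). FOXM1, which joins the complex later, had 373, 355 and 409 on miR-376a*G arrays, against 186, 119 and 112 on miR-control arrays, a log2 difference of 1.48 (SE 0.25, adjusted p = 0.00229). Neither gene's groups overlapped.

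Condensins are rings that compact mitotic chromosomes. Condensin I and condensin II each consist of the SMC2 and SMC4 pair, which drive DNA compaction, plus 3 subunits of their own. All 3 own subunits of condensin I (NCAPD2, NCAPG, NCAPH) and all 3 of condensin II (NCAPD3, NCAPG2, NCAPH2) were called higher in miR-376a*G cells, with median log2 differences of 1.70 and 1.22. NCAPH had 281, 271 and 291 on miR-376a*G arrays, against 13.3, 58.1 and 47.8 on miR-control arrays, a log2 difference of 3.03 (SE 0.56, adjusted p = 0.00336). NCAPD2 had 302, 326 and 300 on miR-376a*G arrays, against 129, 122 and 115 on miR-control arrays, a log2 difference of 1.34 (SE 0.12, adjusted p = 6.6e-05). In both cases the groups did not overlap. NCAPG differed by 1.70, but its adjusted p was above 0.05 without any 1 of the miR-376a*G arrays (0.0608 to 0.0717) and with arrays centred on their medians (0.0671). NCAPG was called higher without miR-376a*A replicate 1 and miR-control replicate 1 (1.22, adjusted p = 2.9e-06). NCAPD3 had 166, 147 and 160 on miR-376a*G arrays, against 91.6, 57.2 and 58.0 on miR-control arrays, a log2 difference of 1.22 (SE 0.20, adjusted p = 0.00182). Every miR-376a*G array lay above every control array for NCAPG and NCAPD3. The NCAPH2 difference was 1.73, with 124, 143 and 132 on miR-376a*G arrays, against 39.9, 34.6 and 43.9 on miR-control arrays; its other tested probe sets gave 0.82 (called), 0.29, 0.24 and 0.17, and the mean over all its probe sets 0.65 (adjusted p = 0.0550). NCAPG2 had 573, 572 and 570 on miR-376a*G arrays, against 405, 414 and 416 on miR-control arrays, a log2 difference of 0.47 (SE 0.11, adjusted p = 0.0105), lost when arrays were centred (adjusted p = 0.318).

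The shared SMC subunits were not called, and their difference from the other subunits was not tested. SMC2 had 482, 471 and 435 on miR-376a*G arrays, against 431, 443 and 454 on miR-control arrays. The groups overlapped, and the log2 difference of 0.06 (SE 0.10, adjusted p = 0.656) had a 95% interval of −0.16 to 0.29. SMC4, whose promoter stretch holds TTTGAA on the opposite strand, had 747, 782 and 714 on miR-376a*G arrays, against 599, 753 and 747 on miR-control arrays. These also overlapped, with a log2 difference of 0.10 (SE 0.14, adjusted p = 0.591) and an interval of −0.21 to 0.41. The differences depend on the scaling: both had a negative sign when arrays were centred on their medians (−0.17 and −0.13), and both were called higher when scaled to the hybridisation controls (0.46 and 0.50); scaled to the poly-A controls SMC2 was called (0.37) and SMC4 was not (0.41, adjusted p = 0.0578). The probe sets also disagree. A second SMC2 probe set gave −1.44 (adjusted p = 0.00265) and a second SMC4 probe set 0.48 (adjusted p = 0.0201).

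**Figure D2:**
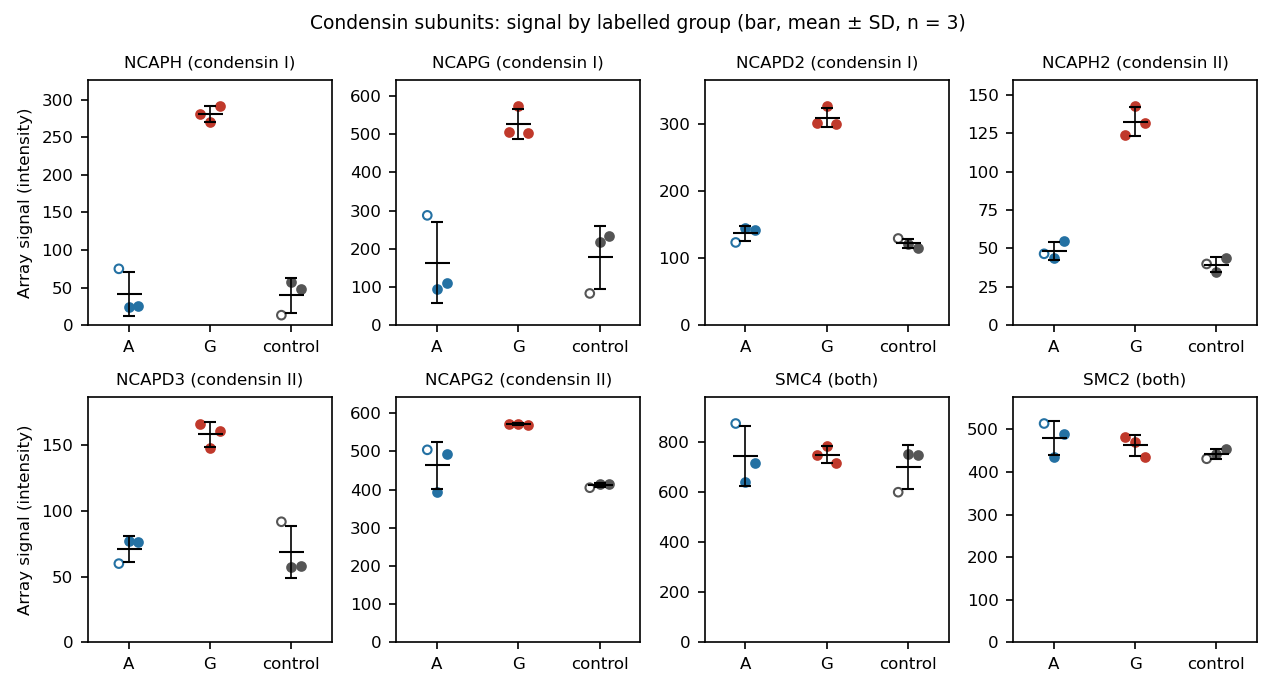
Signal of the 8 condensin subunits in each array (A, miR-376a*A; G, miR-376a*G; control, miR-control), with the mean and SD of 3 arrays as bars. Open symbols mark replicate 1 of miR-376a*A and miR-control. Every array of the miR-376a*G group lies above the other groups for the subunits particular to condensin I or II, and the groups overlap for SMC2 and SMC4.

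TOP2A, the topoisomerase that untangles chromosomes, had 690, 675 and 610 on miR-376a*G arrays, against 175, 139 and 133 on miR-control arrays, a log2 difference of 2.14 (SE 0.14, adjusted p = 1.9e-05). MKI67, the Ki-67 protein that coats mitotic chromosomes, differed by 2.04. All 6 spindle proteins were called higher, with a median of 1.35. ASPM, at spindle poles, had 434, 463 and 430 on miR-376a*G arrays, against 96.8, 114 and 93.4 on miR-control arrays, a log2 difference of 2.12 (SE 0.13, adjusted p = 1.2e-05). The arrays did not overlap. The other 5, which bind or organise spindle microtubules, differed by 1.59 for CKAP2L, 1.51 for NUSAP1, 1.18 for DLGAP5, 1.17 for TPX2 and 0.78 for CKAP2. The CKAP2 call was lost without 1 of the miR-376a*G arrays, with an adjusted p of 0.0571 without replicate 1 and 0.0579 without replicate 2. It was also lost with arrays centred on their medians (0.54, adjusted p = 0.155) and with the mean over probe sets (0.55, adjusted p = 0.216). CKAP2 was called higher without miR-376a*A replicate 1 and miR-control replicate 1 (0.62, adjusted p = 3.0e-04).

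Of the 6 measured genes of the passenger complex and cytokinesis, 5 were called higher, with a median of 1.59. BIRC5, survivin of the passenger complex, had 866, 882 and 822 on miR-376a*G arrays, against 207, 251 and 243 on miR-control arrays, a log2 difference of 1.88 (SE 0.13, adjusted p = 1.9e-05). PRC1, which bundles the central spindle, had 1050, 1144 and 1114 on miR-376a*G arrays, against 250, 343 and 331 on miR-control arrays, a log2 difference of 1.85 (SE 0.18, adjusted p = 1.2e-04). Neither gene's groups overlapped. ANLN, the anillin scaffold of the cleavage furrow, differed by 1.69, RACGAP1 of the centralspindlin complex by 1.35 and CEP55, which recruits the abscission machinery, by 1.50. ECT2, the activator of RhoA at the furrow, had 771, 692 and 744 on miR-376a*G arrays, against 118, 501 and 481 on miR-control arrays. All miR-376a*G arrays were higher, but miR-control replicate 1 was far below its partners, and the log2 difference of 1.26 (SE 0.74, adjusted p = 0.22) was not called. Without miR-376a*A replicate 1 and miR-control replicate 1 it was 0.58 (SE 0.11, adjusted p = 0.00132) and was called.

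**Figure D3:**
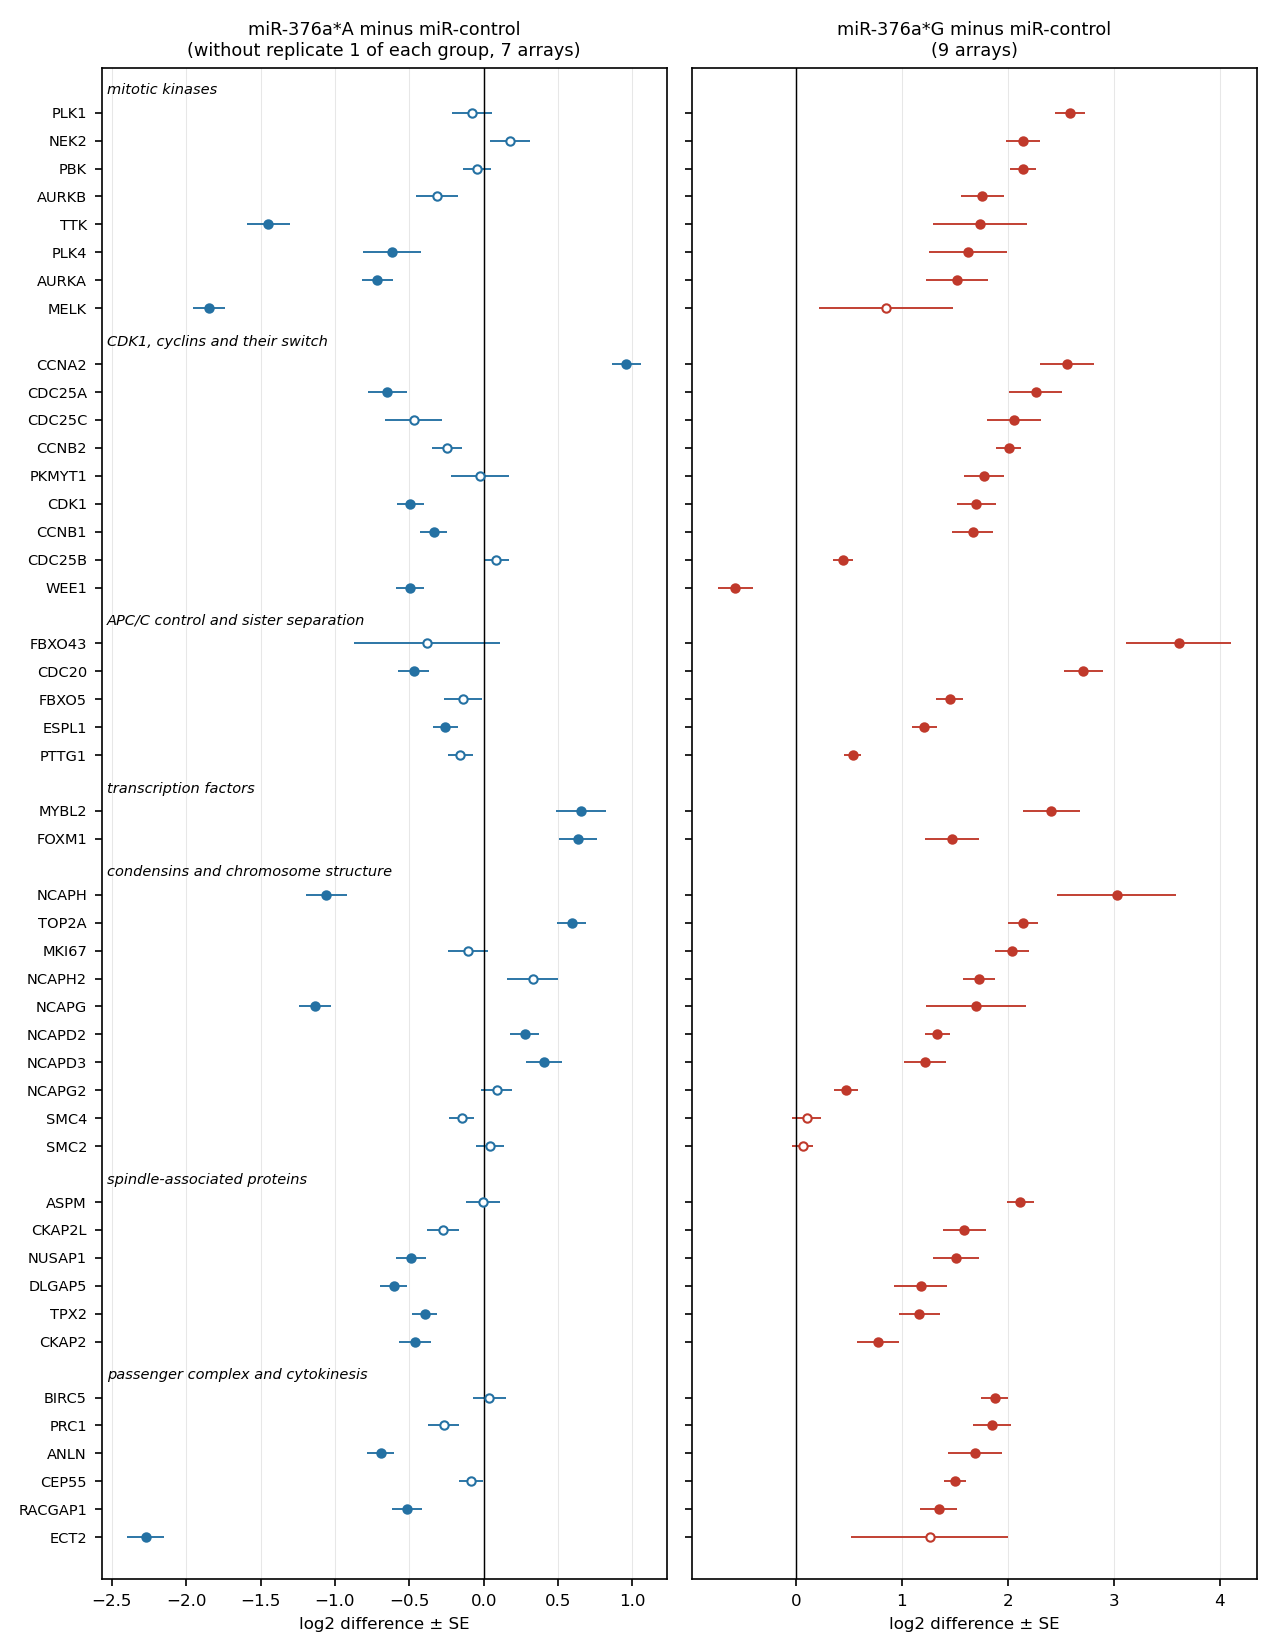
Log2 differences with SE for each member, for miR-376a*A minus miR-control without replicate 1 of each group (left) and miR-376a*G minus miR-control over 9 arrays (right); the panels have different scales. Filled points have an adjusted p under 0.05. The right panel has 41 filled points above 0 and 1 below it, the left 6 above and 19 below.

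The unedited form was set directly against the edited form. In miR-376a*A cells, 40 of 46 members were called lower than in miR-376a*G cells and 0 higher, against 21.8% of all tested genes called lower and 16.4% called higher (limma). At an unadjusted p under 0.05, 0 were higher. The 40 called lower include FBXO43, which was tested only because of the group in which it was high. The median log2 difference was −1.69 over the members and −0.14 over all tested genes. For 42 members all miR-376a*A arrays lay below all miR-376a*G arrays, against 31.8% of all genes. Without miR-376a*A replicate 1 and miR-control replicate 1, 43 members were called lower (34.0% of all genes) and 0 higher (25.7%). CDC20 had 156, 109 and 110 on miR-376a*A arrays, against 830, 967 and 920 on miR-376a*G arrays, a log2 difference of −2.86 (SE 0.19, adjusted p = 1.7e-05). PLK1 had 72.2, 63.5 and 62.7 on miR-376a*A arrays, against 384, 396 and 458 on miR-376a*G arrays, a log2 difference of −2.62 (SE 0.14, adjusted p = 7.6e-06). In both genes the groups were apart on every array.

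The other members called lower in miR-376a*A cells are given by role. Among the kinases the log2 difference was −1.56 for PLK4, −1.66 for AURKA, −1.77 for AURKB, −2.16 for NEK2, −2.29 for TTK and −2.03 for PBK. Around CDK1 the log2 difference was −1.85 for CDK1, −2.09 for CCNA2, −1.64 for CCNB1, −2.12 for CCNB2, −2.51 for CDC25A, −2.12 for CDC25C and −1.88 for PKMYT1. Among the genes of chromosome separation the log2 difference was −1.52 for FBXO5, −3.45 for FBXO43, −0.61 for PTTG1 and −1.35 for ESPL1. For the transcription factors the log2 difference was −1.31 for FOXM1 and −2.19 for MYBL2. Among the genes of chromosome structure the log2 difference was −1.17 for NCAPD2, −1.86 for NCAPG, −2.93 for NCAPH, −1.15 for NCAPD3, −1.44 for NCAPH2, −1.76 for TOP2A and −2.13 for MKI67. For the spindle proteins the log2 difference was −1.20 for TPX2, −1.59 for NUSAP1, −0.89 for CKAP2, −1.61 for CKAP2L, −1.30 for DLGAP5 and −2.02 for ASPM. Among the genes of cytokinesis the log2 difference was −1.73 for BIRC5, −1.80 for PRC1, −1.88 for ANLN, −1.58 for RACGAP1 and −1.46 for CEP55. The 6 members not called were SMC2 (0.05), SMC4 (−0.02), WEE1 (0.36), NCAPG2 (−0.31), MELK (−1.38) and ECT2 (−2.00). Without miR-376a*A replicate 1 and miR-control replicate 1, MELK (−2.09, adjusted p = 3.6e-08), ECT2 (−2.85, adjusted p = 1.4e-08) and NCAPG2 were called lower. Scaled to the hybridisation controls, which moved the median of all genes to −0.81, 45 members were called lower, among them SMC2 (−0.62, adjusted p = 0.00148), SMC4 (−0.69, adjusted p = 0.00226), MELK (−2.05, adjusted p = 0.0144) and ECT2 (−2.67, adjusted p = 0.00845). WEE1 changed sign there (−0.31, adjusted p = 0.165). CDC25B was called at −0.32 (SE 0.09, adjusted p = 0.0242), and this was lost (adjusted p 0.0501 to 0.0894) without any 1 of miR-376a*A replicates 2 and 3 or of the 3 miR-376a*G arrays. With arrays centred on their medians, which moved the median of all genes to 0.11, CDC25B was −0.07 (adjusted p = 0.738), and the calls of PTTG1 (adjusted p = 0.0773) and CKAP2 (adjusted p = 0.0925) were lost. With the mean over probe sets NCAPH2 (adjusted p = 0.107) and CKAP2 (adjusted p = 0.136) were lost. NCAPG was lost without miR-376a*A replicate 3 (adjusted p = 0.0540). This comparison shares the miR-376a*G arrays with the one above.

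The unedited form against the control gave no call by limma with the labels as they stand. Of the 46 members, 0 were called higher or lower in miR-376a*A cells than in miR-control cells (0 of 12587 genes by limma), and at an unadjusted p under 0.05 there was 1 member, against 3.68% of all genes. With limma array weights, which give less weight to arrays that stand apart, 5 members were called higher and 19 lower. The share of all tested genes called with these weights is not given here, so those counts are not read as particular to the members. In the fit without weights, the lowest adjusted p of any member was 0.886. Its median log2 difference was −0.03 over the members and −0.02 over all genes. The arrays of the groups were fully apart for 2 members, with miR-376a*A above (2.57% of all genes), and for 0 with it below (3.58%). PLK1 had 72.2, 63.5 and 62.7 on miR-376a*A arrays, against 69.8, 74.7 and 59.4 on miR-control arrays, which overlap, and its log2 difference of −0.04 had a 95% interval of −0.35 to 0.28. TTK had 80.0, 24.6 and 30.4 on miR-376a*A arrays, against 33.6, 81.2 and 71.9 on miR-control arrays. Replicate 1 of each group was on the side of the other group, and the log2 difference was −0.56, with an interval of −1.56 to 0.45.

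Without miR-376a*A replicate 1 and miR-control replicate 1, the members split. In miR-376a*A cells 6 of the 46 were called higher and 19 lower than in miR-control cells, or 13% and 41.3% of the members, against 19.0% and 22.9% of all tested genes. Each arm then has 2 arrays, the arrays were left out for where they lay, and the p-values are not independent of that choice. The median log2 difference was −0.26 over the members and 0.00 over all genes. For 8 members both miR-376a*A arrays lay above both miR-control arrays, against 34.3% of all genes, and for 27 below, against 35.2%.

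The 19 genes lower in miR-376a*A cells were 4 of 8 kinases, 4 of 9 around CDK1, 2 of 5 of chromosome separation, 2 of 10 of condensins and chromosome structure, 4 of 6 of the spindle and 3 of 6 of cytokinesis. ECT2 had 87.7 and 116 on the remaining miR-376a*A arrays, against 501 and 481 on the remaining miR-control arrays, a log2 difference of −2.27 (SE 0.12, adjusted p = 4.4e-07). MELK had 99.0 and 83.3 on those miR-376a*A arrays, against 332 and 328 on the miR-control arrays, a log2 difference of −1.85 (SE 0.11, adjusted p = 7.1e-07). TTK had 24.6 and 30.4 on those miR-376a*A arrays, against 81.2 and 71.9 on the miR-control arrays, a log2 difference of −1.45 (SE 0.15, adjusted p = 2.5e-05). In all 3 genes replicate 1 of each group lay on the side of the other group's arrays. NCAPG (−1.13) and NCAPH (−1.06) were the next lowest. The others called lower were AURKA (−0.71), ANLN (−0.69), CDC25A (−0.65), PLK4 (−0.61), DLGAP5 (−0.60), RACGAP1 (−0.52), WEE1 (−0.50), CDK1 (−0.49), NUSAP1 (−0.49), CDC20 (−0.47), CKAP2 (−0.46), TPX2 (−0.40), CCNB1 (−0.34) and ESPL1 (−0.26). The second WEE1 probe set gave −0.02 here (adjusted p = 0.919).

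The 6 genes called higher in miR-376a*A cells were a cyclin, both transcription factors and 3 genes of chromosome structure. CCNA2 had 261 and 310 on the remaining miR-376a*A arrays, against 146 and 146 on the remaining miR-control arrays, a log2 difference of 0.96 (SE 0.10, adjusted p = 2.6e-05). Both transcription factors were higher, MYBL2 by 0.66 and FOXM1 by 0.63. TOP2A (0.59) and the condensin subunits NCAPD3 (0.41) and NCAPD2 (0.27) were the other 3. The upward calls depend on scaling: scaled to the hybridisation controls only CCNA2 was called higher (0.69, adjusted p = 4.9e-04), with 27 called lower, and NCAPD2 was 0.00. Without miR-control replicate 3 the upward count was 3. The 6 condensin subunits particular to one complex gave 2 higher and 2 lower, and SMC2 (0.04) and SMC4 (−0.15) were not called. Scaled to the hybridisation controls, which moved the median of all genes to −0.27, SMC4 was called lower (−0.42, adjusted p = 0.00464) and SMC2 was −0.23 (adjusted p = 0.146). As deposited, a second SMC2 probe set was called lower (−0.76, adjusted p = 0.00761). For PLK1 (−0.08), PBK (−0.05), BIRC5 (0.04) and ASPM (−0.0048) the difference was not called and was under 0.1 in size. Also not called were AURKB (−0.31), CCNB2 (−0.25), CDC25C (−0.47), PKMYT1 (−0.02), FBXO5 (−0.14), FBXO43 (−0.38), PTTG1 (−0.16), MKI67 (−0.10), CKAP2L (−0.27), PRC1 (−0.27) and CEP55 (−0.09), with negative values, and NEK2 (0.18), CDC25B (0.09), NCAPG2 (0.09) and NCAPH2 (0.33), with positive ones. CDC25B turned negative when scaled to the hybridisation controls (−0.19) or centred (−0.03).

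**Figure D4:**
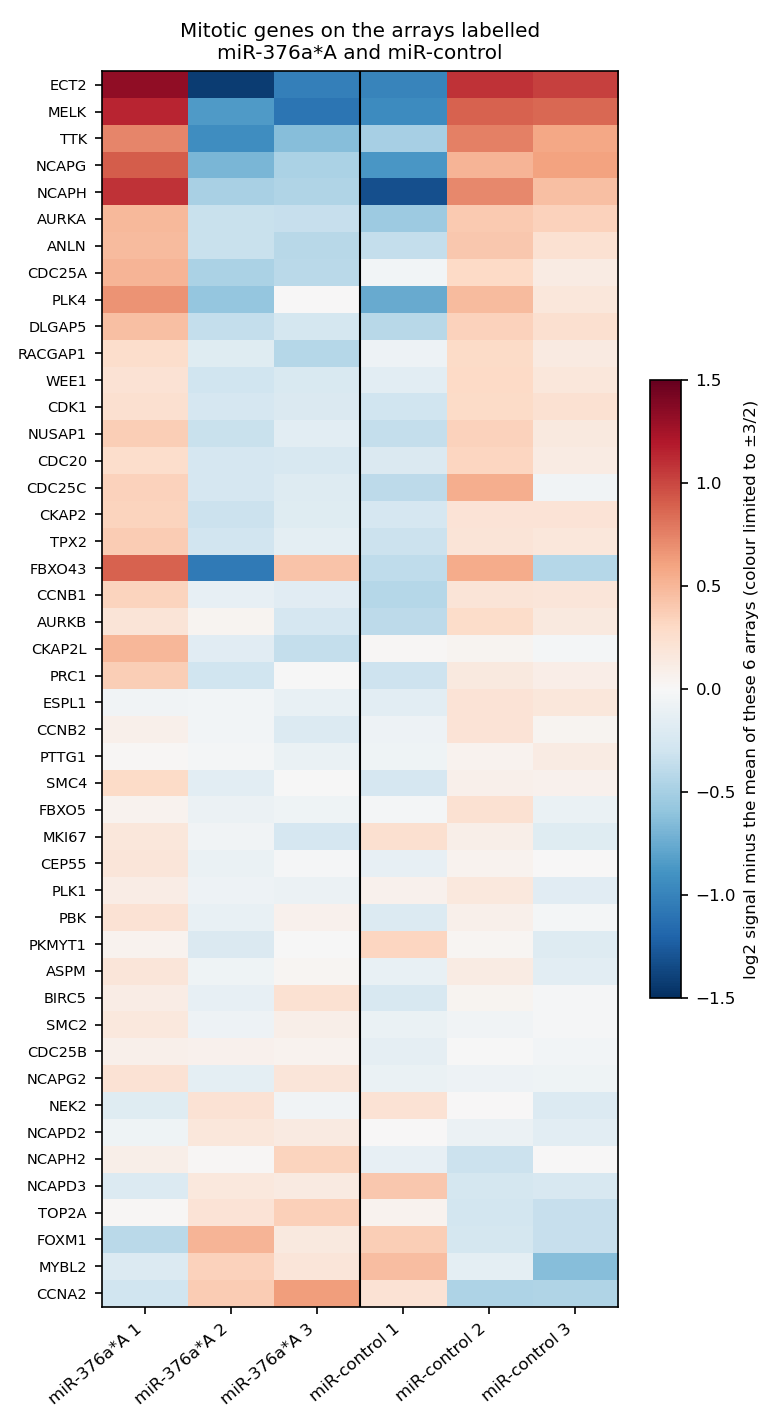
Log2 signal of each member on the 6 arrays labelled miR-376a*A and miR-control, minus the mean of those 6 arrays (colour); genes are ordered by the miR-376a*A minus miR-control difference without replicate 1 of each group, lowest at the top. In the top rows (ECT2, MELK, TTK) miR-376a*A replicate 1 is high with miR-control replicates 2 and 3, and miR-control replicate 1 is low with miR-376a*A replicates 2 and 3.

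Many of the members have further probe sets. Of the 38 other probe sets tested, from 23 genes, 29 were called higher and 1 lower in miR-376a*G than in miR-control, and 37 had the same sign as the chosen probe set. The 1 lower was that of SMC2. In miR-376a*A against miR-376a*G, 2 were called higher and 32 lower, and 37 had the same sign. The 2 higher were of SMC2 (1.05, adjusted p = 0.0110) and WEE1 (0.53, adjusted p = 0.0401). An SMC4 probe set was called lower there (−1.05, adjusted p = 0.0103). Without replicate 1 of either group, miR-376a*A against miR-control gave 3 higher and 12 lower, with 33 of the same sign. These calls come from a separate fit over 24310 probe sets, and the share of all those probe sets called is not given here. ECT2's second probe set gave 1.91 (adjusted p = 0.0700) in miR-376a*G against miR-control, beside the chosen 1.26.

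Related genes that are not on the list were read from lists chosen with earlier results of these data known. The counts are read against 18.0% of all tested genes called higher in miR-376a*G cells than in miR-control cells and 15.4% called lower. In miR-376a*G cells, 23 of 26 other mitotic genes were called higher than in miR-control cells and 0 lower. All 26 had a positive difference, with a median of 1.71. Among them were CDCA3 (1.80), PSRC1 (1.58), PIMREG (1.92) and SPC25 (1.82). Partners of the passenger complex and central spindle gave 8 higher of 10, with the motor proteins KIF23 (2.18), KIF14 (1.50) and KIF20A (1.46) and the passenger subunit CDCA8 (1.84). Other CDK regulators gave 6 higher of 10, including CDKN3 (1.59), CCNF (1.80), CKS1B (1.10) and CKS2 (0.88).

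The complexes that these genes act on were counted in the same way, and their shares are read against 18.0% of all tested genes called higher and 15.4% called lower. Subunits of the anaphase-promoting complex and its enzymes gave 5 higher and 3 lower of 16, a median of 0.10. The 2 ubiquitin-conjugating enzymes (UBE2S 1.23, UBE2C 1.18) and the subunits ANAPC15 (1.28), ANAPC13 (1.18) and ANAPC10 (0.65) were higher. The subunits CDC26 (−1.81), CDC16 (−0.71) and CDC27 (−0.49) were lower. Cohesin and its regulators gave 7 higher and 1 lower of 15. CDCA5 (2.28), ESCO2 (2.23), SGO2 (1.63) and SGO1, which act on cohesin in dividing cells, were higher. The cohesin subunits SMC3 (0.92) and STAG1 (0.66) were higher too, as was NIPBL (0.50), and the subunit STAG2 (−1.22) was lower. MuvB and its partners gave 3 higher of 10 (RBL1 1.47, LIN9 1.08, LIN52 0.67), and the Greatwall and PP2A list gave 1 of 8 (MASTL, the Greatwall kinase, 1.03). Housekeeping genes gave 1 higher and 2 lower of 11, with a median of −0.02.

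**Figure D5:**
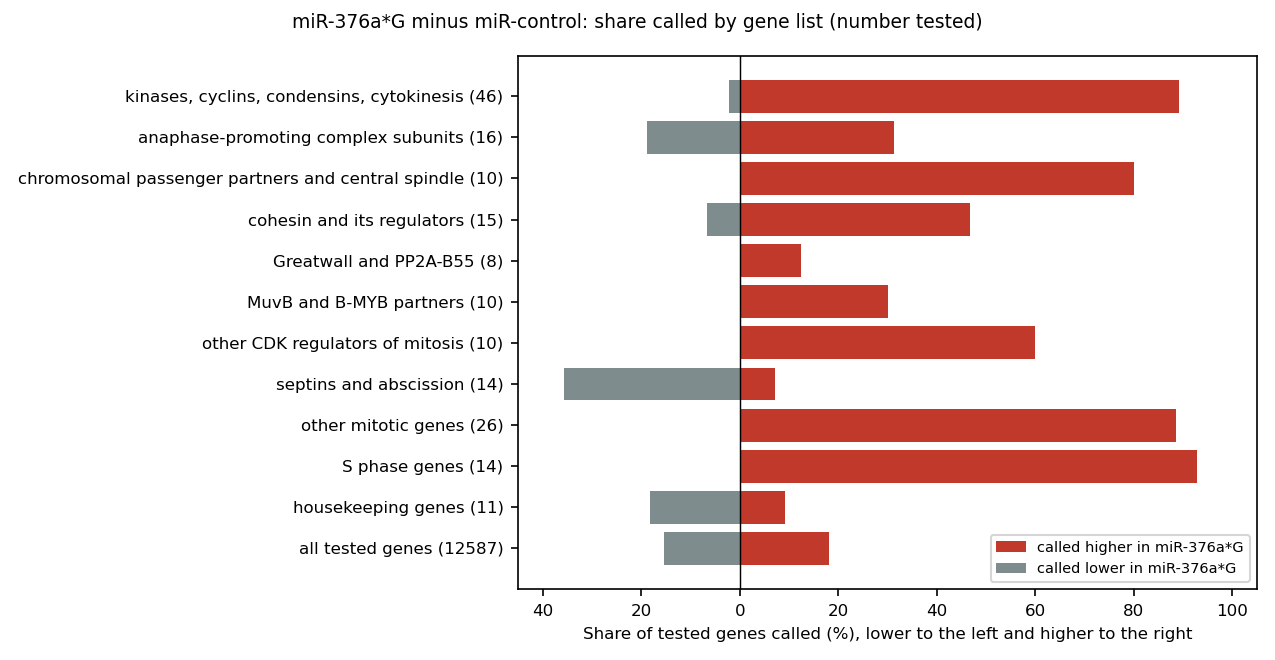
Share of tested genes in each list called higher (to the right) or lower (to the left) in miR-376a*G against miR-control, with the number tested in brackets. The genes described here, the other mitotic genes and the S phase genes have the longest bars to the right, against 18.0% of all tested genes.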

How the data were processed

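Total RNA from U87 cells, 9 arrays in 3 groups of 3, was hybridised to Affymetrix human arrays with biotin-ULS label, per the labels' protocols. The authors deposited a linear intensity for each of 54675 probe sets per array and ran GCOS, version 1.4.0.036, according to the submitters' processing notes; how probes were summarised is not stated there. The values are already scaled (trimmed mean close to 100 on every array), which removes a change in total mRNA. Probe sets were named from the platform's table; 41091 had 1 gene, 1801 several.

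Intensities were taken to log2(signal + 1) and tested with limma 3.58.1 in R 4.3.3 (lmFit, eBayes with trend, Benjamini-Hochberg over 12587 genes, call at adjusted p under 0.05). Groups came from the labels. The fit over 9 arrays has 6 residual degrees of freedom, the fit over 7 arrays 4. The number of arrays limits precision. The code was tested on simulated data. The members and all gene lists were chosen with earlier results of these data known, and no p over a list is given. By rule every measured member is named in each comparison with calls. Of each other list, up to 4 called genes with the smallest p are named. For the anaphase-promoting complex and cohesin lists, all called genes are named. Other scalings, pseudocounts, filters, probe set rules, array weights, a replicate block and leaving out arrays were tried. Same-numbered replicates were not found to pair, but the check could not decide this between miR-376a*A and miR-control. Protein sequences were not used here.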

Additional observations from a re-analysis of the deposited data

How the results depend on the processing

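In miR-376a*G against miR-control, 36 to 43 members were called higher over the other settings and 38 to 41 with 1 array left out. The 1 member called lower (WEE1) became 0 when scaled to the hybridisation controls or to the poly-A controls and with the replicate block, and ranged from 0 to 1 with 1 array left out; with the mean over probe sets WEE1 was also lost (adjusted p = 0.0529), and the 1 called lower was another gene. In miR-376a*A against miR-376a*G, 37 to 45 members were called lower and, with 1 array left out, 38 to 43; 1 was called higher with the mean over probe sets and 1 with array weights, against 0. In miR-376a*A against miR-control as labelled, array weights gave 5 higher and 19 lower, and leaving out replicate 1 of both groups 6 and 19, against 0 and 0. The share of all genes called with array weights is not given here. Leaving out any 1 array gave 0. In the comparison without those arrays, scaling to the hybridisation controls gave 1 higher against 6, and leaving out 1 further array gave 3 to 5 higher and 16 to 21 lower (3 higher without miR-control replicate 3). Apart from the scaling, which shifts every gene together, the cause was not tested. No gene named as called in the first comparison or in the direct comparison of both forms reversed its direction. Some differences that were not called as deposited changed sign under some scalings. Among these were SMC2 and SMC4 in the first and the direct comparison, WEE1 in the direct comparison, and CDC25B in miR-376a*A against miR-control. Of 42 genes named in the first comparison 34 kept their call in all 22 settings, and of 40 in the direct comparison of both forms, 35.

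Same-numbered replicates did not deviate together: the correlations of their deviations from the group means were 0.00896, −0.00689 and −0.167 between miR-376a*G and miR-control, 0.00045, −0.076 and 0.0457 between both forms, and −0.88, −0.606 and −0.556 between miR-376a*A and miR-control. Replicate 1 of miR-376a*A and of miR-control lay on the side of the other group, and deviations within a group sum to 0. The values between those groups therefore cannot show whether their replicates pair. In miR-376a*G against miR-control the replicate block gave 38 members higher and 0 lower. It gave 39 lower in the direct comparison of both forms. Values near the lower end of the scale (FBXO43 on miR-376a*A and miR-control arrays) and 3 arrays a group limit what can be seen.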

Other observations

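S phase genes were also higher in miR-376a*G cells than in miR-control cells. Of 14 tested, 13 were called higher (limma), against 18.0% of all tested genes, all 14 had a positive difference, and the list had a median log2 difference of 1.39. RRM2, the small subunit of ribonucleotide reductase, differed by 1.49, the replication licensing factors CDT1 and CDC6 by 2.26 and 2.20, and the helicase subunit MCM5 by 1.70. MCM3 was the gene not called, at 0.49. Set against miR-control without replicate 1 of either group, miR-376a*A cells had 3 of the 14 called higher and 2 lower, against 19.0% and 22.9% of all tested genes. TYMS, thymidylate synthase, was the most clearly different of them (1.03, adjusted p = 3.3e-05).

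The septins and the abscission machinery act at the end of cytokinesis. Of 14 tested, 1 was called higher and 5 lower in miR-376a*G cells than in miR-control cells, against 18.0% and 15.4% of all tested genes, with a median of −0.16. SEPTIN8 (−1.63), CHMP4B (−0.64) and SEPTIN7 (−0.41) were lower and the ATPase VPS4A (0.61) was higher. In miR-376a*A cells without replicate 1 of each group, 3 were higher and 4 lower than in miR-control cells, with CHMP2B at −1.18 and SEPTIN10 at −0.89. Of all tested genes 19.0% were called higher and 22.9% lower there.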
